A study of Homo sapiens with 12 samples.

Results

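Polysome association across genes was described in HCT116 cells, a human colorectal cancer line, in which hnRNP U had been silenced with siRNA for 48 h. The members are the 6 libraries of these cells, of 12 in the series, chosen by their labels: 3 of total (input) RNA and 3 of heavy polysomal (HP) RNA, 1 of each from experiments 1, 2 and 3. HP and total libraries of the same experiment were compared as pairs. The other 6 libraries, HP and total RNA of cells given a control siRNA in the same experiments, share no library with them and are given only beside their values. The study asked how hnRNP U acts on the translation of mRNAs, and the comparison described here shows which transcripts heavy polysomes carried when little of its mRNA was left. The sources used here do not say which of the study's hnRNP U siRNA sequences was transfected, nor whether total RNA was taken before nuclei were removed. The line is a single cell line, and whether the 3 experiments used separately grown stocks is not stated, so errors are those between experiments.

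An mRNA that is being translated carries several ribosomes, and in a sucrose gradient the fractions with many ribosomes per mRNA are the heavy polysomes. A transcript enriched in HP over total RNA has a larger share of its copies on long strings of ribosomes than the average transcript, while nuclear, noncoding, organellar or repressed RNAs are depleted, and a short reading frame holds few ribosomes even when all are translating. hnRNP U is an RNA- and DNA-binding protein found mainly in the nucleus, known for roles in chromatin structure and RNA processing.

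The libraries held between 34052821 and 37439545 counts in genes, and 15920 genes passed the filter on low counts. Levels are CPM, counts scaled to a common library size with TMM factors. HP/total is the log2 ratio of these levels within an experiment, so a move made by most transcripts together is not seen in it. In bulk RNA, fewer cells with polysomal copies and fewer polysomal copies per cell cannot be told apart. The 3 experiments gave Spearman coefficients of 0.851 to 0.853 between their ratios over 15920 genes, and the median SD of a gene's ratio between them was 0.0995 on the log2 scale. Of 12 epithelial markers, 10 were tested, and the summed level of the 12 (CPM without TMM) was 4624 to 4938 in total RNA and 7709 to 8187 in HP RNA. The 20 markers of blood, vessel, stromal, muscle, neural and liver cells summed to between 17.1 and 19.04 in total RNA and 17.2 and 20.7 in HP RNA. Of these 20, 16 had a mean under 1 CPM, among them PTPRC, CD3E, HBB, MYOD1 and DCN. The others were COL1A1 (8.84 CPM), DES (3.77), ACTA2 (3.36) and SYP (1.70), as means over the 6 libraries. Of the 12 epithelial markers, 2 had a mean under 1 CPM in total RNA, and 2 in HP RNA.

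HNRNPU itself (ENSG00000153187, chromosome 1, 244840638 to 244864560 of GRCh38), the siRNA's target, was the first check. Its level in total RNA was 168, 149 and 160 CPM in experiments 1, 2 and 3, which is 16.9%, 13.4% and 16.3% of the control siRNA libraries. In HP RNA it had 82.4, 75.2 and 77.1 CPM, or 8.06%, 6.57% and 7.18% of control. The remaining transcript was thus lower in HP than in total RNA, with a log2 HP/total of −1.02 (SE 0.03, adjusted p = 3.6e-13), against 0.07 with control siRNA. The difference between siRNAs was −1.09 (SE 0.04, adjusted p = 3.2e-11). With hnRNP U siRNA the HP libraries of HNRNPU all lay below its total libraries, as in 33.8% of all genes.

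Most transcripts differed between HP and total RNA, with 71.3% of 15920 genes called by the quasi-likelihood test of edgeR at a threshold of 0.05 on the adjusted p. Of these genes, 5951 were higher in HP RNA (37.4% of those tested) and 5405 lower (34%). Every HP library lay above every total library in 36.7% of all genes tested, and below in 33.8%. The counts were more uneven at larger sizes, where 247 genes were at least 2-fold higher (1.55%) and 1617 at least 2-fold lower (10.2%). The median of all genes was 0.00 (quartiles −0.47 and 0.39), and ratios ran from −4.91 to 2.29. Another scaling moves this centre. With upper-quartile factors the median was −0.11 and 89 genes were at least 2-fold higher, so directions of ratios within 0.11 of 0 depend on the scaling. With control siRNA 69.9% of genes were called, 5633 higher (35.4%) and 5502 lower (34.6%), of which 122 (0.766%) and 1813 (11.4%) were at least 2-fold. Among genes called under both siRNAs, 9890 had the same sign and 16 did not.

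**Figure D1:**
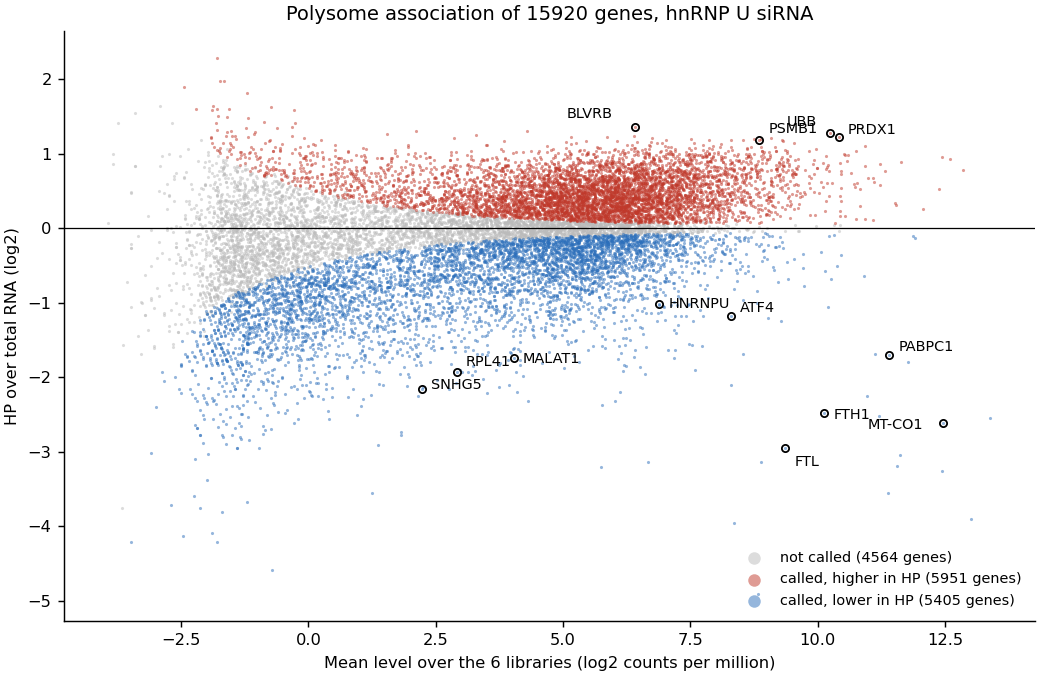
Each point is 1 of 15920 genes in hnRNP U siRNA cells, with its mean level over the 6 libraries (log2 CPM) on the x axis and its log2 HP/total on the y axis. Grey points were not called, red were called higher and blue lower. Depleted transcripts reach −4.91 (MT-ND3), while enriched coding ones with a mean log2 CPM of 3 or more end at 1.36 (BLVRB).

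By kind of RNA, protein-coding transcripts sat above noncoding ones. Of 12745 protein-coding genes of the nuclear genome, 44.8% were higher and 29.6% lower in HP RNA, with a median of 0.09. Of 2318 long noncoding RNA genes, 91 (3.93%) were higher and 1365 (58.9%) lower, with a median of −0.79. The 521 processed pseudogenes, which share sequence with the mRNAs they were copied from, had a median of 0.13.

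Among protein-coding genes of the nuclear genome with a mean log2 CPM of 3 or more, the lowest ratios were those of both ferritin chains, the iron storage proteins whose mRNAs carry an iron-responsive element (IRE) in the 5′ UTR. An IRE is a hairpin that iron regulatory proteins bind when iron is scarce, which blocks initiation on ferritin mRNA. The element is given from the canonical transcripts of GENCODE 44 on GRCh38, 5′ to 3′ along the mRNA, because both ferritin mRNAs share it and other holders of it can be set beside them. The capitals mark the 6 bases of the loop.
FTL, chr19:48965335-48965364: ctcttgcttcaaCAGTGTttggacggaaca
FTH1, chr11:61967573-61967602: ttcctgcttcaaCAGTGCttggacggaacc
SLC40A1, chr2:189580660-189580689: caacttcagctaCAGTGTtagctaagtttg
The upper pair lie in the 5′ UTRs of the ferritin light and heavy chain genes and the last in that of ferroportin, the iron exporter. They were found by a search of the sense strand for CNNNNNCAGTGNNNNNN, in which the 5 bases before the loop had to pair with the 5 after it, G with U allowed.

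FTL had 1227, 1134 and 1132 CPM in total RNA and 154, 144 and 153 CPM in HP RNA of experiments 1 to 3. FTH1 had 1984, 1866 and 1832 CPM in total RNA and 345, 332 and 340 CPM in HP RNA. In both, every HP library was several fold below every total library (below by any amount in 33.8% of all genes). Their log2 HP/total was −2.95 (SE 0.03, adjusted p = 1.5e-18) and −2.48 (SE 0.02, adjusted p = 2.0e-18), and with control siRNA −2.75 and −2.35. Processed pseudogenes of both chains can take or share reads, and 73.2% of the exons of FTH1 lie opposite exons of another gene on the other strand. Ferroportin was close to the limit of detection, at 0.671, 0.561 and 0.886 CPM in total RNA and 0.120, 0.0616 and 0.231 CPM in HP RNA, a log2 ratio of −2.33 (SE 0.37). The match was present in the 5′ UTR of 13 of 12745 coding genes (0.102%). Of these 13, 5 were higher and 4 lower (beside 44.8% and 29.6% of coding genes), with a median of −0.00. ADAR (−0.04), which is an RNA-editing enzyme, PRPF18 (0.67), a splicing factor, and DUSP9 (0.79), a phosphatase, hold a match too and were named after their values were seen. A match in the 3′ UTR was found in 95 genes, with a median of 0.11 against 0.09 for all coding genes. TFRC, the transferrin receptor, holds 4 and had a ratio of −0.18 (SE 0.02, adjusted p = 9.5e-06), with 658 to 689 CPM in total RNA and 583 to 604 CPM in HP RNA.

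The 12 most depleted under the same limit on level, called and of 1 sign in every experiment, were both ferritins and 10 others. Below that limit lower ratios occurred, such as −2.56 for PFDN5, a prefoldin subunit whose canonical exons lie in those of another gene on the same strand. SELENOW, a small selenoprotein with 264 nt of coding sequence, had 90.8, 89.3 and 93.2 CPM in total RNA and 15.6, 19.8 and 17.6 CPM in HP RNA, a log2 ratio of −2.37 (SE 0.06). NTAN1, an amidase that starts degradation from the N terminus, had 18.6, 18.6 and 18.9 CPM in total RNA and 3.92, 3.20 and 4.96 CPM in HP RNA, a ratio of −2.21 (SE 0.09). COMMD6 (−1.98), of the COMMD family of trafficking proteins, and SMIM29 (−1.96), a small membrane protein, have coding lengths of 258 and 309 nt. The ubiquitin ligase genes MARCHF2 (−1.92) and CCNB1IP1 (−1.87) and the conjugating enzyme gene UBE2D4 (−1.90) were also lower, as were MMD (−1.93), the integrin gene ITGAE (−1.85) and ATMIN (−1.85), a transcription factor of the dynein light chain. ATMIN, with a coding length of 2472 nt, had 122, 112 and 121 CPM in total RNA and 32.9, 31.1 and 34.6 CPM in HP RNA. In each of these with values per library, the lowest total library lay far above the highest HP library (above by any amount in 33.8% of all genes).

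The 12 largest enrichments under the same limit on level were smaller, all between 1.20 and 1.36 on the log2 scale, while the ratios of all genes, pseudogenes included, reached 2.29 at lower levels. BLVRB, a reductase of biliverdin and flavins (chromosome 19, 40447765 to 40465764), had 46.6, 47.3 and 49.9 CPM in total RNA and 118, 127 and 124 CPM in HP RNA, a ratio of 1.36 (SE 0.03, adjusted p = 8.1e-14). UBB, a polyubiquitin gene, had 697, 717 and 698 CPM in total RNA and 1662, 1763 and 1695 CPM in HP RNA, a ratio of 1.28 (SE 0.02). PRDX1, a peroxiredoxin, had 815, 835 and 808 CPM in total RNA and 1897, 1962 and 1885 CPM in HP RNA, a ratio of 1.22 (SE 0.02). In each of these the HP libraries lay above the total libraries with a wide gap (above by any amount in 36.7% of all genes). The other members were HMGN5 (1.31), a nucleosome-binding protein, the cytokine gene IL32 (1.25), MRPL28 (1.24) of the mitochondrial ribosome, ETFB (1.23), an electron transfer flavoprotein, NTHL1 (1.22), a DNA glycosylase, CHMP2A (1.21) of the ESCRT machinery, the small heat shock protein gene HSPB1 (1.21), TPM2 (1.20), a tropomyosin, and NUDC (1.20), a dynein cofactor. All 12 have coding lengths of 567 to 996 nt, where the depleted 12 span 258 to 3540 nt. The difference between siRNAs passed the test for none of these 24 genes (adjusted p of 0.051 for TPM2 and from 0.147 upwards for the others in edgeR).

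**Figure D2:**
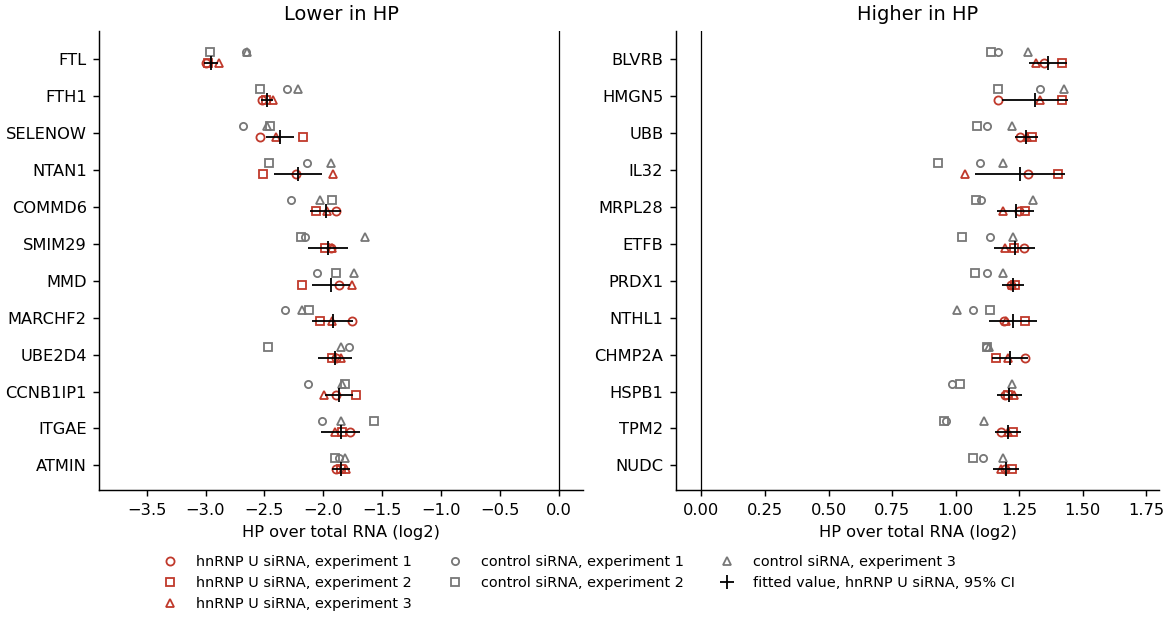
The 12 protein-coding genes of the nuclear genome with the largest log2 HP/total each way among those with a mean log2 CPM of 3 or more, 1 row each, with log2 HP/total on the x axis. Open red symbols are the 3 experiments with hnRNP U siRNA, grey symbols those with control siRNA, and the black bar with its line the fitted value and its 95% confidence interval. Experiments lie close together beside the distance from 0, and grey and red symbols overlap or lie near each other in most rows.

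Ratios rose and then fell with coding length. In classes set after the data were seen, 46 coding genes with under 200 nt of coding sequence had a median log2 HP/total of −1.01. Of these, 42 were lower and the other 4 not called, beside 29.6% lower and 44.8% higher of all coding genes. The 199 genes with 200 to 299 nt had a median of −0.59 and the 358 with 300 to 399 nt one of −0.27. The median was 0.27 for 600 to 999 nt (2365 genes) and 0.21 from 1000 nt to below 2000 nt (4904 genes). It was −0.19 from 4000 nt to below 8000 nt (815 genes) and −0.47 for the 160 genes of 8000 nt or more, of which 116 were lower and 9 higher. The medians with control siRNA followed the same course, from −1.14 in the shortest class through 0.25 to −0.45 in the longest. A single Spearman coefficient across 12745 genes, which cannot show such a hump, was −0.11.

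The 5 shortest reading frames among genes whose mean log2 CPM reached 5 were all lower in HP RNA. OST4, a subunit of the oligosaccharyltransferase with 114 nt, had 54.4, 56.0 and 59.3 CPM in total RNA and 19.5, 20.03 and 20.6 CPM in HP RNA, a ratio of −1.50 (SE 0.04). The actin-sequestering thymosins TMSB10 and TMSB4X, with 135 nt each, had ratios of −1.20 and −1.13, STMP1, a mitochondrial micropeptide of 144 nt, had −1.06, and ATP5F1E, the epsilon subunit of ATP synthase with 156 nt, had −0.92. The 5 longest were lower too, by less. MDN1, a ribosome assembly ATPase with 16791 nt, had 142, 147 and 137 CPM in total RNA and 84.7, 81.7 and 80.1 CPM in HP RNA, a ratio of −0.79 (SE 0.03). AHNAK (−0.46), a scaffold protein, the histone methyltransferase gene KMT2D (−0.37), and the spectraplakins DST (−0.31) and MACF1 (−0.11, adjusted p = 0.0043) followed. MACF1 alone of these 10 lost its call when experiment 3 was left out (−0.08, adjusted p = 0.094).

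Cytosolic ribosomal protein mRNAs ran the whole way from strongly depleted to enriched. These mRNAs begin with a C followed by a run of pyrimidines, the TOP motif through which mTOR and LARP1 control their translation together. Of 79 genes, 27 were higher and 43 lower, beside 44.8% and 29.6% of coding genes. Their median was −0.11 against 0.09 for coding genes, and ratios ran from −1.93 to 0.72. The first 20 bases are shown for the 3 lowest and the 3 highest of those genes whose canonical transcript has such a start. Both ends carry it because it was required. These 6 were picked after their values were seen, leaving out genes whose exons overlap another gene, and the capitals mark the C and its pyrimidine run.
RPL41, chr12:56116633-56116652: CTCTCggccttagcgccatt
RPS29, chr14:49586361-49586380: CTTCCTTTTacctcgttgca
RPS12, chr6:132814569-132814588: CTCTTTCCCTgccgccgccg
RPL14, chr3:40457339-40457358: CTTCTCgcctaacgccgcca
RPL24, chr3:101686699-101686718: CTTTCTTTTCgccatctttt
FAU, chr11:65122115-65122134: CTCTTTCTCgactccatctt
RPL41, with 78 nt of coding sequence, had 9.73, 12.5 and 13.3 CPM in total RNA and 2.99, 3.45 and 2.88 CPM in HP RNA, a ratio of −1.93 (SE 0.10). RPS29, with 171 nt, had 188, 237 and 247 CPM in total RNA and 67.4, 69.8 and 63.8 CPM in HP RNA, a ratio of −1.73 (SE 0.06). RPS12, with 399 nt, had 547, 584 and 575 CPM in total RNA and 193, 168 and 168 CPM in HP RNA, a ratio of −1.69 (SE 0.04). At the other end, FAU, which encodes RPS30 fused to a ubiquitin-like protein in 402 nt, had 265, 277 and 269 CPM in total RNA and 445, 447 and 445 CPM in HP RNA, a ratio of 0.72 (SE 0.02). RPL24 had a ratio of 0.67 and RPL14 one of 0.59.

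Among the 75 ribosomal protein genes without such overlap, all 9 with under 300 nt of coding sequence were lower, with a median of −1.25. Of the 17 with 300 to 399 nt, 16 were lower and 1 higher, with a median of −0.34. Of the 15 from 500 nt to below 700 nt, 11 were higher and 1 lower, with a median of 0.31. The 14 longest, from 700 nt, had 9 higher and 3 lower and a median of 0.24. Of all coding genes, 44.8% were higher and 29.6% lower. The Spearman coefficient of ratio and coding length across these 75 genes was 0.65, and 0.63 with control siRNA. The lower ones among the longest were RPLP0 (−1.06), RPSA (−0.68) and RPS2 (−0.64), named after their values were seen. Across all coding genes a start of C and at least 4 pyrimidines was found in 691 (5.42%), and their median was 0.02 against 0.10 for the others. Without the ribosomal protein genes it was 0.05 over 631 genes. Ribosomal protein genes have many processed pseudogenes, so their counts depend on how the authors treated reads that map to several places, which the sources used here do not give.

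**Figure D3:**
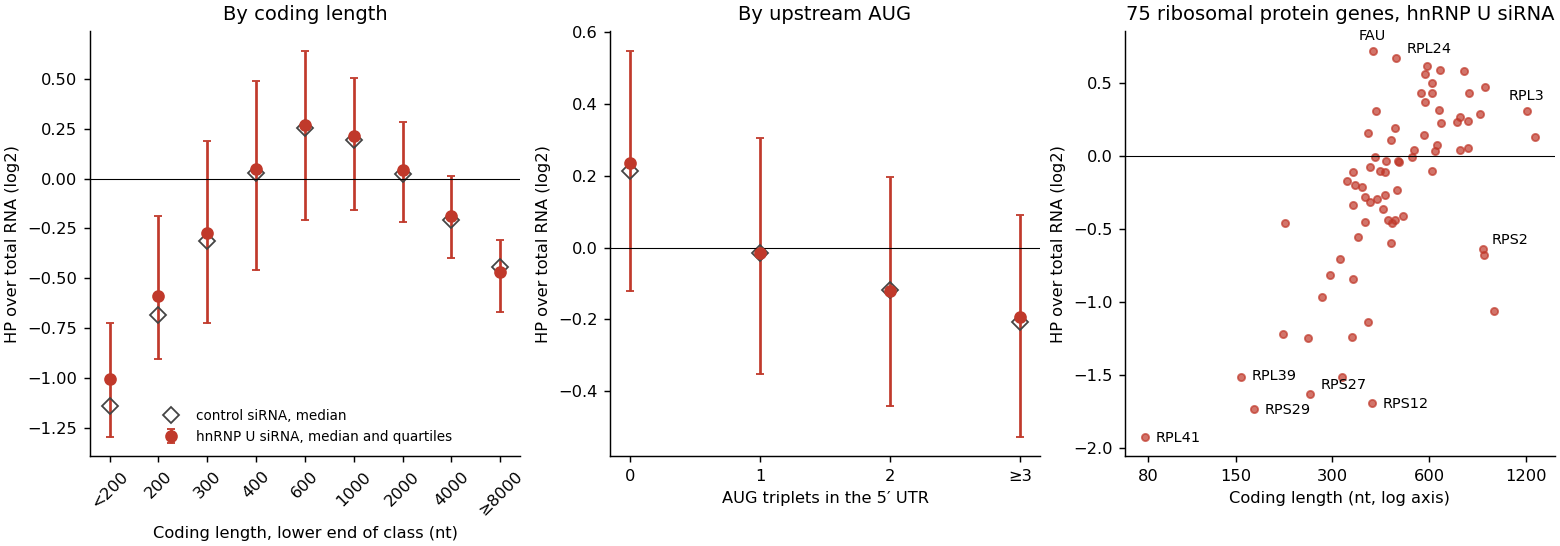
Left and middle: median log2 HP/total (red, with quartiles as bars) of coding genes in classes of coding length and of the number of AUG triplets in the 5′ UTR, with control siRNA medians as open diamonds. Right: 75 ribosomal protein genes by coding length (log axis) and log2 HP/total with hnRNP U siRNA. The length classes rise from −1.01 to 0.27 and fall to −0.47, the AUG classes fall from 0.24 to −0.19, and the ribosomal protein genes climb with length.

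AUG triplets ahead of the main reading frame, which can capture scanning ribosomes, went with lower ratios. The 7505 coding genes with no AUG in the 5′ UTR of the canonical transcript had a median of 0.24, with 55.7% higher and 21.03% lower. The 2470 genes with 1 AUG had a median of −0.02, the 1166 with 2 had −0.12, and the 1604 with 3 or more had −0.19, with 19.02% higher and 48.8% lower. Control siRNA medians were 0.21, −0.01, −0.12 and −0.21. With coding genes parted by 5′ UTR length into 3 equal classes, the medians in the longest class were 0.23, 0.01, −0.10 and −0.19 for 0, 1, 2 and 3 or more AUG. In the middle class they were 0.24, −0.06, −0.19 and −0.23. In the shortest class they were 0.24, 0.07, 0.01 and 0.04, none below 0, the last over only 8 genes and the one before it over 49. Longer 5′ UTRs and 3′ UTRs went with lower ratios as well, with Spearman coefficients of −0.19 and −0.22 across 12745 genes, −0.17 to −0.19 and −0.21 to −0.24 in the single experiments. Length, AUG number and level are related to each other across genes, and their parts were not separated beyond this split. An RNA G-quadruplex (RG4) motif, the element the study followed, was sought in canonical transcripts as 4 runs of 3 or more G that 1 to 7 nt part from each other, and found in 3407. Their median was 0.06 against 0.11 for the 9338 without it, and with control siRNA 0.03 against 0.09.

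The transcripts known to be regulated by upstream reading frames were mostly depleted. Of 17 tested, 14 were lower and 3 higher (beside 29.6% and 44.8% of coding genes), with a median of −0.47. ATF4, the transcription factor of the integrated stress response, had 464, 436 and 409 CPM in total RNA and 199, 191 and 191 CPM in HP RNA, a ratio of −1.17 (SE 0.03, adjusted p = 4.9e-14). DDIT3, the transcription factor CHOP of the same response, had 20.4, 20.04 and 17.1 CPM in total RNA and 9.13, 8.35 and 7.41 CPM in HP RNA, a ratio of −1.21 (SE 0.06). SLC35A4, a nucleotide sugar transporter with 11 upstream AUG, had a ratio of −1.03 (SE 0.04). The others lower included the polyamine enzyme gene AMD1 (−0.67), the phosphatase regulators PPP1R15A (−0.65) and PPP1R15B (−0.50), and MDM2 (−0.60), the ligase of p53. Going the other way, CEBPB, a transcription factor, had 112, 106 and 96.9 CPM in total RNA and 199, 206 and 191 CPM in HP RNA, a ratio of 0.92 (SE 0.03), TRIB3, a pseudokinase, one of 0.25, and CEBPA one of 0.17. IFRD1 (−0.20) lost its call under 5 alternatives and CEBPA under 9, among them leaving out experiment 1 or 3.

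Of 14 mRNAs known for frameshifting or for elements that regulate them, 8 were lower and 2 higher (beside 29.6% and 44.8% of coding genes). The median of the 14 was −0.38. Besides the iron genes, the lower ones were polyamine genes. The antizymes OAZ1 (−0.64), OAZ2 (−0.59) and the weakly expressed OAZ3 (−2.26) need a frameshift to be made, and they were lower, as was the acetyltransferase gene SAT1 (−1.16). ODC1, the decarboxylase that antizymes target, had 840, 791 and 753 CPM in total RNA and 800, 737 and 780 CPM in HP RNA, with a ratio of −0.04 (SE 0.03, adjusted p = 0.21). Its ratio with control siRNA was −0.60, and the difference between siRNAs passed the test (0.56, adjusted p = 1.0e-04). XBP1 (0.43), of the unfolded protein response, and MAT2A (0.24), which makes S-adenosylmethionine, were higher.

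Selenoproteins read a stop codon as selenocysteine. Of 18 tested, 11 were lower and 5 higher (beside 29.6% and 44.8% of coding genes), with a median of −0.45. GPX4, the glutathione peroxidase that repairs lipid peroxides, had 212, 216 and 223 CPM in total RNA and 82.7, 77.7 and 84.6 CPM in HP RNA, a ratio of −1.41 (SE 0.03). GPX1 (−1.27) and SELENOH (−1.13) were lower as well, though 63.6% of the exons of GPX1 overlap another gene on the same strand.

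The translation machinery other than the ribosome was mostly enriched. Of 41 initiation factor genes, 30 were higher and 9 lower (beside 44.8% and 29.6% of coding genes), with a median of 0.42. EIF6 (1.00), which keeps large subunits apart from small ones, and EIF3K (0.97), of the scaffold eIF3, were the highest. PABPC1, the poly(A)-binding protein, had 4237, 4103 and 4113 CPM in total RNA and 1315, 1241 and 1278 CPM in HP RNA, a ratio of −1.70 (SE 0.02, adjusted p = 1.9e-17). Its mRNA is a known TOP mRNA that also binds its own product. EIF4A1, the initiation helicase, was called lower (−1.38), but all of its canonical exons lie in exons of another gene on the same strand, so its counts may be incomplete. The list of elongation and termination factors had 9 higher and 4 lower of 14, with a median of 0.21. It also holds TPT1 and BTF3, which are not themselves such factors and were its lowest and highest members. TPT1 (−0.68), EEF2 (−0.13) and EEF1A1 (−0.10) were lower, and BTF3 (0.91) and EEF1D (0.78) were higher. A start of C and a pyrimidine run was present in all 5, with 6 further pyrimidines in TPT1, EEF2 and EEF1A1, 5 in BTF3 and 8 in EEF1D. EEF1A1 had 3827, 3897 and 3828 CPM in total RNA and 3602, 3609 and 3588 CPM in HP RNA, a small shift beside a narrow spread. Of 22 aminoacyl-tRNA synthetase genes and cofactors, 19 were higher and 2 lower, with a median of 0.61, led by AIMP2 (0.99) and HARS1 (0.96). EPRS1 was lower (−0.33).

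Noncoding RNAs known to stay in the nucleus were depleted. Of 8 tested, 7 were lower (beside 58.9% of long noncoding RNA genes) and 1 was not called, with a median of −1.58. NEAT1, the scaffold of paraspeckles, had 123, 107 and 112 CPM in total RNA and 25.2, 22.2 and 26.7 CPM in HP RNA, a ratio of −2.20 (SE 0.05). MALAT1, of nuclear speckles, had 29.2, 22.2 and 24.2 CPM in total RNA and 8.89, 7.12 and 6.63 CPM in HP RNA, a ratio of −1.74 (SE 0.06). KCNQ1OT1 had −0.24 (adjusted p = 0.14) at a level of 2.15 to 2.65 CPM in total RNA, and its libraries overlapped. Host genes of small nucleolar RNAs, many of which begin with a TOP motif and are known targets of nonsense-mediated decay, were lower without exception. They were 24 of 24 (beside 58.9% of long noncoding RNA genes), with a median of −1.72. SNHG4 had 32.0, 31.4 and 34.98 CPM in total RNA and 6.80, 7.61 and 5.39 CPM in HP RNA, a ratio of −2.32 (SE 0.09), and SNHG25 one of −2.28. Among other noncoding genes of the nuclear genome with a mean log2 CPM of 1 or more, RN7SL1, the RNA of the signal recognition particle, had the lowest ratio, −3.55 (SE 0.20), with 2.75 to 5.05 CPM in total RNA and 0.299 to 0.404 CPM in HP RNA. MIR23AHG (−2.91) and CASC8 (−2.39) followed, together with MTND2P28, MTATP6P1 and MTCO1P12, nuclear copies of mitochondrial genes that can take reads of the originals. Under the same limit the noncoding genes with the highest ratios were ENSG00000288829 (1.31), HMGB1P5 (1.21), ENSG00000277998 (1.06), MIR1244-2 (1.02) and 2 others without a symbol (1.14 and 1.12), of which ENSG00000277998 was no longer called with DESeq2 (adjusted p = 0.074).

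RNAs of the mitochondrial genome, which ribosomes inside mitochondria translate, had the lowest median of the 36 lists. They took 8.84% to 9.70% of the counts of total RNA and 1.19% to 1.29% of those of HP RNA. All 13 mRNAs were lower (beside 34% of all genes), with a median of −3.19, against −3.76 with control siRNA. MT-ND3 had 865, 835 and 929 CPM in total RNA and 32.3, 28.4 and 26.8 CPM in HP RNA, a ratio of −4.91 (SE 0.05). MT-CO1 had 9373, 9186 and 10618 CPM in total RNA and 1424, 1626 and 1716 CPM in HP RNA, a ratio of −2.62 (SE 0.03). MT-ND6, the mRNA of the other strand of that genome, stood apart at 587, 671 and 641 CPM in total RNA and 514, 600 and 486 CPM in HP RNA, a ratio of −0.25 (SE 0.04), with overlapping libraries. Both ribosomal RNAs were lower, MT-RNR2 at −2.55 and MT-RNR1 at −2.25.

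Nuclear-encoded mitochondrial mRNAs, which cytosolic ribosomes translate, were mostly enriched. Mitochondrial ribosomal protein genes had 62 higher and 9 lower of 79 (beside 44.8% and 29.6% of coding genes), with a median of 0.59. MRPL28 led with 48.8, 50.3 and 51.0 CPM in total RNA and 116, 121 and 116 CPM in HP RNA (1.24, SE 0.03), ahead of MRPL24 (1.15) and MRPL16 (1.07). The tricarboxylic acid cycle and pyruvate dehydrogenase had 22 higher and 3 not called of 25, with a median of 0.63, among them SUCLG1 (1.08), a succinyl-CoA ligase subunit, and the isocitrate dehydrogenase subunits IDH3B and IDH3G (1.04 each). Complex I had 23 higher and 8 lower of 37, with a median of 0.32, and complexes II to V had 26 higher and 16 lower of 44, with a median of 0.35. The small subunits UQCR11 (−1.10, 171 nt) and ATP5F1E were lower and the larger UQCRC1 (0.97) and ATP5F1C (0.98) higher. Import factors and chaperones were split, with 24 higher and 12 lower of 39 and a median of 0.37. The small import proteins TIMM8B and DNAJC19, of 252 and 351 nt, had ratios of −1.36 (SE 0.06) and −1.37 (SE 0.06). In these lists NDUFA7 (−1.66), MRPS5 (−1.54), TOMM5 (−2.20) and PAM16 (−1.74) were among the lowest, and at least 77.9% of the canonical exons of each overlap another gene on the same strand.

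The 13 mRNAs that the study followed by RT-qPCR in gradient fractions had 7 higher and 5 lower (beside 44.8% and 29.6% of coding genes). Their median was 0.17. With control siRNA 8 were higher and 5 lower, with a median of 0.12, and the difference between siRNAs passed the test for none of the 13. By RT-qPCR the study reported less polysome association after hnRNP U depletion for RG4-containing nuclear-encoded mitochondrial mRNAs that hnRNP U binds. Those RT-qPCR values were not compared with the ratios given here. RTN4, of the endoplasmic reticulum, had 394, 390 and 383 CPM in total RNA and 596, 611 and 585 CPM in HP RNA, a ratio of 0.62 (SE 0.02). HSPD1, the mitochondrial chaperonin, had 1490, 1536 and 1454 CPM in total RNA and 2192, 2233 and 2054 CPM in HP RNA, a ratio of 0.53 (SE 0.02). GALNT2 (0.33), MRPL37 (0.32), COQ2 (0.28), GPD2 (0.17) and ATP2A2 (0.14) were higher by less, of which GPD2 and ATP2A2 were not called with upper-quartile factors (0.06 and 0.03). AKAP1, an anchor for kinases and mRNAs on the outer mitochondrial membrane, had 143, 144 and 136 CPM in total RNA and 118, 114 and 109 CPM in HP RNA, a ratio of −0.31 (SE 0.03). SLC38A1 (−0.31), B4GALT1 (−0.24) and ATP2B1 (−0.14) were lower, and so was the weakly expressed COX16 (−1.24, SE 0.21). PRODH, at 0.178 to 0.349 CPM in total RNA, had 0.37 (SE 0.41, adjusted p = 0.43).

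The proteasome had the highest median of the 36 lists. Of 31 subunit genes, 29 were higher and 1 lower (beside 44.8% and 29.6% of coding genes). Their median was 0.90, against 0.84 with control siRNA. PSMB1 had 278, 290 and 279 CPM in total RNA and 640, 651 and 643 CPM in HP RNA, a ratio of 1.19 (SE 0.02), and PSMB3 had the same ratio (SE 0.03). PSMA2 was the exception (−1.71), and its exons lie entirely in those of another gene on the same strand. Glycolysis had 18 higher and 4 not called of 22, with a median of 0.73, including TPI1 (1.07), LDHA (1.00) and PGAM1 (1.00). LDHA had 969, 976 and 967 CPM in total RNA and 1938, 1982 and 1921 CPM in HP RNA. Cytosolic chaperones had 25 higher and 4 lower of 31, with a median of 0.69, led by HSPB1 (332, 318 and 324 CPM in total RNA and 761, 734 and 761 CPM in HP RNA). Chaperones of the endoplasmic reticulum had 25 higher and 2 lower of 32, with a median of 0.38, with PPIB (1.05) and SIL1 (1.04) at the top. Enzymes of cholesterol and fatty acid synthesis had 23 higher and 4 lower of 32, with a median of 0.31.

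**Figure D4:**
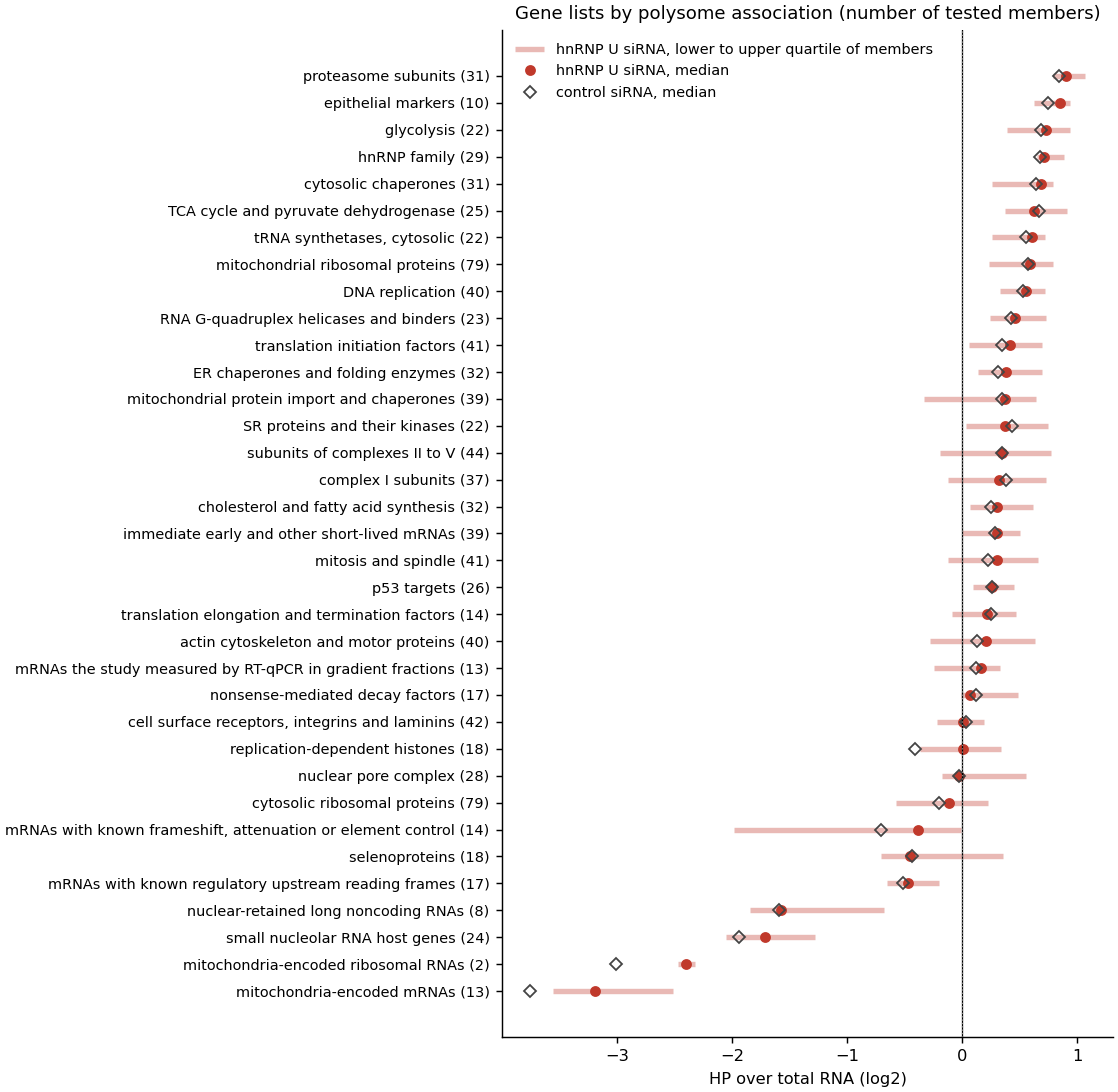
Lists of genes ordered by the median log2 HP/total with hnRNP U siRNA (red points, with red bars from the lower to the upper quartile of the members), beside the medians with control siRNA (open diamonds). The number of tested members is in parentheses and the dotted line is the median of all genes. Proteasome subunits lie highest at 0.90 and mitochondria-encoded mRNAs lowest at −3.19.

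Most members of the hnRNP family were enriched. Of 29 genes, HNRNPU included, 27 were higher and 2 lower (beside 44.8% and 29.6% of coding genes). Their median was 0.71 against 0.68 with control siRNA. HNRNPA2B1 had 1269, 1233 and 1191 CPM in total RNA and 2639, 2776 and 2547 CPM in HP RNA, a ratio of 1.11 (SE 0.02), and HNRNPAB and HNRNPD had 1.03 each. The lower pair were HNRNPU and PTBP3 (−0.27), the latter named after its value was seen. SR proteins and their kinases had 15 higher and 2 lower of 22, with a median of 0.37, led by SRSF3 (1.09), with 381, 365 and 349 CPM in total RNA and 798, 793 and 734 CPM in HP RNA. Helicases and binders of RNA G-quadruplexes had 20 higher and 2 lower of 23, with a median of 0.46, among them CNBP (0.93) and NSUN5 (0.84). Factors of nonsense-mediated decay had 8 higher and 3 lower of 17, again beside 44.8% and 29.6% of coding genes. Here the exon junction proteins MAGOH (1.12), UPF3B (0.94) and EIF4A3 (0.93) were higher and the kinase SMG1 (−0.58), with 10986 nt of coding sequence, and SMG5 (−0.33) lower. The sign of this list's median (0.07) changed with the scaling.

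In the cell cycle lists, DNA replication had 37 higher and 2 lower of 40 (beside 44.8% and 29.6% of coding genes), with a median of 0.55. PCNA, the sliding clamp, had 345, 331 and 304 CPM in total RNA and 683, 657 and 613 CPM in HP RNA, a ratio of 0.99 (SE 0.02). Mitosis and spindle genes had 25 higher and 11 lower of 41, with a median of 0.30, with AURKB (0.99), CDC20 (0.92) and SPC25 (0.89) at the top. Replication-dependent histone mRNAs have no poly(A) tail, so poly(A)-selected libraries hold few of them. Of 60 genes 18 were tested, with 6 higher and 3 lower, and the linker histones H1-2 (0.94) and H1-4 (0.97) were among the higher. The median (0.01) changed sign with the scaling and without experiment 2 or 3, and H1-4 was no longer called without experiment 1 (adjusted p = 0.097) or 3 (adjusted p = 0.065) in edgeR, nor with DESeq2 (adjusted p = 0.16). Targets of p53, which is intact in this line, had 20 higher and 4 lower of 26, with a median of 0.26, and included GDF15 (0.96), FDXR (0.95) and TP53I3 (0.93) on the higher side. Short-lived mRNAs of the early response had 26 higher and 6 lower of 39, with a median of 0.31, led by ID1 (0.98).

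Surface, nuclear pore and actin genes were called in both directions, beside 44.8% higher and 29.6% lower of coding genes. Of 42 cell surface receptors, integrins and laminins, 17 were higher and 16 lower, with a median of 0.01 whose sign changed with the scaling and without experiment 2. ITGA2 had 67.0, 74.4 and 81.2 CPM in total RNA and 41.8, 48.7 and 52.9 CPM in HP RNA, a ratio of −0.64 (SE 0.04), while EPCAM, the epithelial adhesion molecule with 945 nt of coding sequence, had 0.89 (SE 0.02). Nucleoporins had 13 higher and 12 lower of 28, with a median of −0.03, and SEC13 (1.00) and NUP37 (0.99) were the highest. Actin cytoskeleton and motor genes had 21 higher and 14 lower of 40, with a median of 0.21. CFL1, cofilin, had 981, 1005 and 999 CPM in total RNA and 1962, 1979 and 1977 CPM in HP RNA, a ratio of 0.99 (SE 0.02). The epithelial markers had 9 higher and 1 not called of 10, with a median of 0.85. Of 20 markers of other cell types 5 were tested, with DES (1.09) and ACTA2 (0.74) higher and COL1A1 (−0.39) lower.

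The ratios with hnRNP U siRNA followed those with control siRNA, with a Spearman coefficient of 0.92 across 15920 genes. The difference was tested as an interaction term between siRNA and fraction in a fit of the 12 libraries with the culture as a block. An effect of the experiment on HP/total that both siRNAs share was not modelled. The fit called 140 genes (0.879%), 97 with a higher (0.609%) and 43 with a lower (0.27%) HP/total under hnRNP U siRNA. The counts were unstable. Without the block they were 13 and 13, and without experiments 1, 2 and 3 they were 31 and 23, 40 and 19, and 21 and 4. The split turned with the scaling or filter, to 45 and 58 with DESeq2's size factors, to 28 and 136 with the mitochondrial genome left out of the scaling, and to 85 and 199 without a filter. Of the 13 mitochondria-encoded mRNAs, 9 were less depleted with hnRNP U siRNA, and between 5 and 11 under the alternatives, none of which called any of them lower. Of 79 cytosolic ribosomal protein genes 8 were higher, and between 2 and 12 under the alternatives.

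MT-ATP8, of the ATP synthase, had 99.9, 93.3 and 97.5 CPM in total RNA and 11.6, 12.05 and 8.16 CPM in HP RNA, a ratio of −3.20 (SE 0.08) against −4.37 with control siRNA. MT-ND2 (−3.05 against −4.00) and MT-ND1 (−2.52 against −3.46) of complex I and MT-CYB (−1.80 against −2.60) were less depleted too, as was MALAT1 (−1.74 against −2.58). On the lower side, NAPB, a factor of membrane fusion, had 8.97, 8.64 and 9.61 CPM in total RNA and 3.68, 3.45 and 4.06 CPM in HP RNA, a ratio of −1.28 (SE 0.09) against −0.34 with control siRNA. THUMPD2, an RNA methyltransferase, had −0.63 against 0.19, and the prenyltransferase subunit gene PTAR1 −1.10 against −0.54. FAH and FBXO4 had ratios near 0 (−0.01 and −0.13) that missed the threshold with hnRNP U siRNA, against 0.64 and 0.63 with control siRNA. The share of counts on the mitochondrial genome moved with these results, at 9.26% ± 0.43 (SD, n = 3) of total RNA and 1.24% ± 0.049 (SD, n = 3) of HP RNA, against 11.2% ± 0.30 (SD, n = 3) and 1.05% ± 0.18 (SD, n = 3) with control siRNA, and its part in them was not tested beyond the rescaling above.

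**Figure D5:**
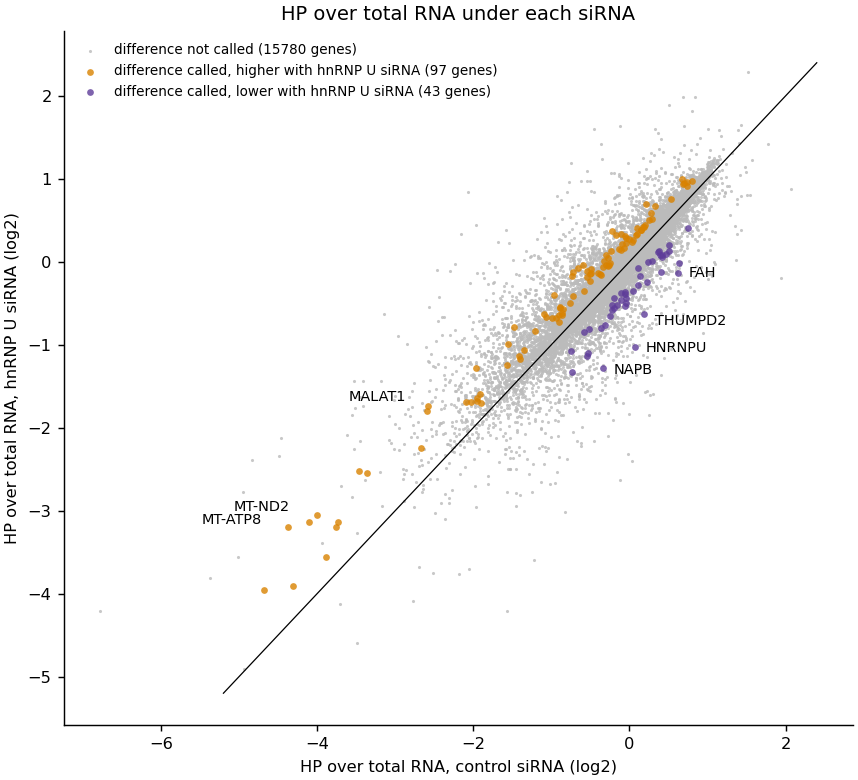
Each point is a gene, with its log2 HP/total with control siRNA on the x axis and with hnRNP U siRNA on the y axis. The line marks equal ratios. The 140 genes whose difference was called are orange (97, higher) or purple (43, lower), with the mitochondria-encoded genes at the lower left above the line and HNRNPU and NAPB to the right below it.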

How the data were processed

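The series holds 12 libraries of HCT116 cells, of which the 6 with hnRNP U siRNA are described here. Per the labels and methods, poly(A)+ RNA was sequenced as single reads of 75 bp after a directional preparation, trimmed with Trim Galore (quality 30, minimum length 18 nt), mapped with STAR to hg38 and counted over GENCODE 43. The submitters' processing notes also name CASAVA 1.8. The STAR version and the strand setting are not given in the sources used here. The deposited values were counts per gene, made by the authors and not normalized, for 62703 gene IDs in the 12 libraries. Of these, 62686 were found in GENCODE 44 on GRCh38, which gave symbols, kinds and transcript features.

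HP and total RNA were compared with edgeR 4.0.16 in R 4.3.3 (quasi-likelihood test, TMM factors, experiment as a block, Benjamini-Hochberg adjustment over 15920 genes kept by filterByExpr at a minimum count of 10). The difference between siRNAs was fitted over 12 libraries with the culture as a block, without a term for the experiment's effect on HP/total. Pairs come from the experiment codes in the titles. The correlations of deviations of paired HP and total libraries were 0.12, 0.049 and 0.127 with hnRNP U siRNA, and those of unpaired ones −0.123 to 0.006. Deviations were taken from the mean of 3 libraries and so sum to 0. Negative unpaired values thus follow from positive paired ones and are no separate check of the pairing. Replicates differed by more than sampling noise, so none was counted as a duplicate. Adjusted p-values rest on 3 experiments, and the labels do not say how far these were separate cultures.

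Genes named were the 12 protein-coding (mean log2 CPM of 3 or more) and 6 noncoding genes (1 or more) of the nuclear genome with the largest called ratios each way and 1 sign in every experiment, the 5 shortest and 5 longest reading frames (5 or more), the 8 largest differences between siRNAs each way, up to 4 called members of each of 36 lists, all members of lists of up to 20 genes, and exceptions said to be chosen after values were seen. The groups and lists were chosen with earlier results of these data known. Alternatives were DESeq2 1.42.0, other scaling factors, other filters, no block, all 12 libraries in 1 fit and leaving out each experiment. The fits were tested on simulated data. Values of some genes are not reported here.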

Additional observations from a re-analysis of the deposited data

Results flagged for a closer look

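A difference between siRNAs in HP/total passed edgeR's test for 140 genes, and the 16 largest, 8 each way, are given here as log2 HP/total with hnRNP U siRNA minus that with control siRNA. No difference was weighed further. On the lower side these were HNRNPU (−1.09), NAPB (−0.94), THUMPD2 (−0.82), FBXO4 (−0.76), FAH (−0.65), FAM135A (−0.59), HPS1 (−0.59) and PTAR1 (−0.56). On the higher side they were MT-ATP8 (1.17), MTND2P28 (0.96), MT-ND2 (0.95), MT-ND1 (0.94), MALAT1 (0.84), MT-RNR2 (0.82), MT-CYB (0.80) and MT-ND4L (0.73). Exons of another gene on the same strand cover 60.7% of those of HPS1, and 83.7% of those of MALAT1 have another gene on the other strand.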

How the results depend on the processing

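Counts at the larger fold and the signs of ratios near 0 depended on the scaling and filter. Beside the 247 genes at least 2-fold higher in HP RNA, upper-quartile factors gave 89, scaling without the mitochondrial genome 113, no filter 144 and a minimum count of 50 gave 53. That minimum gave 1010 genes at least 2-fold lower, beside 1617. The median of all genes was 0.00, −0.11 with upper-quartile factors, −0.08 without the mitochondrial genome and −0.15 without a filter, and the share of higher genes among those called 52.4%, 42.9%, 45.5% and 47.2%. Without the replicate block 5681 genes were higher and 5147 lower, and without 1 of the experiments 5597 to 5645 and 4840 to 4922. Of genes called both in the main comparison and under an alternative, 1 changed sign, without experiment 3. Among 243 called genes named, 1 to 9 lost their call under each setting and none changed direction.

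For the difference between siRNAs, where the share of higher genes was 69.3%, calls were 97 higher and 43 lower. DESeq2 gave 28 and 41, its size factors 45 and 58, scaling without the mitochondrial genome 28 and 136 (17.1% higher), no filter 85 and 199, and a minimum count of 50 gave 157 and 43. Without the replicate block 13 and 13 were called, and leaving out 1 experiment gave 21 to 40 higher and 4 to 23 lower.

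List medians close to 0 turned sign. That of surface receptors, integrins and laminins (0.01) was −0.0080 with DESeq2, −0.020 with its size factors, −0.10 with upper-quartile factors, −0.072 without the mitochondrial genome, −0.040 without a filter and −0.085 at a minimum of 50, and −0.0051 to 0.024 with 1 experiment left out. That of histones (0.01) was −0.0212, −0.0216, −0.10, −0.073 and −0.044 under the same settings up to the filter, and −0.059 to 0.12 with 1 experiment left out. That of nonsense-mediated decay factors (0.07) was −0.041 with upper-quartile factors, −0.012 without the mitochondrial genome and −0.025 at a minimum of 50. The medians of the other 33 lists kept their sign, 138 values having moved by more than the spread between experiments and 258 by less. The causes were not tested. Counts from 3 experiments limit what weakly expressed genes such as PRODH and ferroportin show.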

Other observations

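Small nucleolar RNAs and mitochondrial tRNAs had lower medians than the long noncoding RNAs (−0.79), of which 58.9% were lower in HP RNA. Of 9 small nucleolar RNA genes tested, 8 were lower in HP RNA, with a median log2 HP/total of −1.97, and of 13 mitochondrial tRNA genes 12 were lower, with a median of −1.72. Poly(A) selection leaves few of either in such libraries. Of 5 microRNA genes, 1 was higher and 2 lower, with a median of −0.61. Among the short-lived mRNAs, CXCL2, a chemokine, was lower (−0.95) while NFKBIA (0.77), the inhibitor of NF-κB, and IER5 (0.74) were higher, and CXCL2 lost its call under 2 of the alternatives. Among the epithelial markers the keratins KRT19 (1.04) and KRT18 (0.97) and the claudin gene CLDN7 (0.96) were higher, and CDH1, E-cadherin, had −0.05 and did not pass the test.

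Ratios also went with level, with a Spearman coefficient of 0.22 between log2 HP/total and the mean CPM in total RNA across 12745 coding genes, a level from which the ratio is itself computed. GC content at the last position of codons gave 0.07. Genes whose canonical exons overlap another gene on the same strand by at least 50% were more often called lower, 43.9% of 437 against 33.7% of the others, and without them 5874 genes were higher and 5213 lower of 15483, a setting chosen after the data were seen.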
